A study of Mus musculus with 272 samples.

Results

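The genes described here are 10 regulators of the first cell decisions inside the mouse embryo, followed from the oocyte to the blastocyst. They were named in a list that was chosen with earlier results of these data known. It holds the pluripotency factors Pou5f1, Nanog and Sox2 and the growth factor Fgf4. Also on it are the receptors Fgfr1, Fgfr2 and Pdgfra and the endoderm factors Gata6, Gata4 and Sox17. All 10 were among the 15854 gene symbols of the deposited table. The question put to them was whether a message and its presence in the heavy, ribosome-rich part of a gradient set in at the same stage.

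The study spun lysates of mouse oocytes and embryos through sucrose gradients, with the drug cycloheximide added to keep ribosomes on their messages, and sequenced the RNA of 10 fractions per gradient beside whole transcriptomes. The 8 groups are the germinal vesicle (GV) oocyte, the metaphase II (MII) oocyte, the zygote, the 2-cell, 4-cell and 8-cell embryo, the morula and the blastocyst. Each has 4 transcriptome libraries, made from pools of 20 oocytes or embryos, and 3 gradients, each loaded with about 100. The labels give no strain, mutation or treatment, and do not say whether the pools or gradients of a stage were collected separately, so every p-value measures only the spread between these samples. Values are CPM, the reads of a gene divided by those of its library and scaled up by a constant. The mean CPM of fractions 6 to 10 of a gradient is called its heavy level and that of fractions 1 to 5 its light level. Since CPM sets every library to the same total, a heavy level is a share of the RNA in those fractions and not an amount.

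In the blastocyst the inner cell mass separates into the epiblast, which forms the embryo proper, and the primitive endoderm, which forms yolk sac tissue. NANOG and SOX2 mark the epiblast and GATA6, GATA4 and SOX17 the primitive endoderm. FGF4 made by epiblast precursors acts through the receptors FGFR1 and FGFR2 and favours primitive endoderm, and PDGFRA is a surface marker of that lineage. OCT4 (the product of Pou5f1) and SOX2 are known to bind DNA together at neighbouring octamer and Sox motifs.

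The RefSeq promoter table (build GRCm38.p6) matched 6 members with windows that were read. Shown are the 250 bases before the annotated start of the 4 of them whose transcriptome level was below 1 CPM in every zygote library, the members that rose from the lowest levels after it. For Nanog, which has a pair of annotated starts, the upstream one is used. Capitals mark the searched motifs on either strand: the octamer ATGCAAA (read as TTTGCAT on the other strand), the Sox motif ACAATG and the GATA motif AGATAA. The windows are Nanog at chr6:122707239-122707488, Sox2 at chr3:34649745-34649994, Fgf4 at chr7:144861136-144861385 and Pdgfra at chr5:75152001-75152250, all on the plus strand.
Nanog: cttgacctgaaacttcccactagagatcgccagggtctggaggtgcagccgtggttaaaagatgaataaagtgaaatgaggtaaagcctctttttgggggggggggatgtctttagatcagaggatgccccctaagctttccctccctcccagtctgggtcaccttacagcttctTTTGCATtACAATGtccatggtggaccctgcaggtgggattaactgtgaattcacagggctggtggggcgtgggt
Sox2: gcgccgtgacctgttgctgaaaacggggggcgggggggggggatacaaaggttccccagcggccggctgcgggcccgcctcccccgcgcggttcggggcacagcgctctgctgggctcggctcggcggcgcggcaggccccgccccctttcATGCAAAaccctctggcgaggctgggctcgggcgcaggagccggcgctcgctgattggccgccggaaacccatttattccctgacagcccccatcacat
Fgf4: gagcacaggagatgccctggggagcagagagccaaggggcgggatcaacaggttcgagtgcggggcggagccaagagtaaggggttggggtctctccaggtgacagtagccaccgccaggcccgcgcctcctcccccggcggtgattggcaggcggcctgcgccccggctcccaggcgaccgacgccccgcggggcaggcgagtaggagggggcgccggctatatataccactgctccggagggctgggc
Pdgfra: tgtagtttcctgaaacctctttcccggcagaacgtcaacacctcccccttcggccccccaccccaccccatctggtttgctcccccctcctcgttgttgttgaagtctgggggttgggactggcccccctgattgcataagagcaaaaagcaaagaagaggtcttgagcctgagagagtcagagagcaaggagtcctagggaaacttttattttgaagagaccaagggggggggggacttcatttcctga
The Nanog window held an octamer 75 bases and a Sox motif 67 bases before the start, with 1 base between them. The Sox2 window held an octamer 99 bases before its start. None of the 3 motifs was found for Fgf4 or Pdgfra in these bases or the 50 after the start. Of 32851 such windows of 300 bases, 4.63% held the octamer, 12.6% the Sox motif and 11.2% the GATA motif. A match of letters is a description, not a binding site.

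Transcriptome libraries held 11.2 to 24.3 M reads and fraction libraries 0.0102 to 43.2 M, 15 of the fractions under 1 M. Markers of other cells were followed as summed CPM over the transcriptome libraries of a stage. The 5 cumulus and granulosa markers present of 10 (Fshr, Lhcgr, Cyp19a1, Star and Inha) summed to 41.7 to 46.4 in GV oocytes, 60.9 to 69.8 in MII oocytes and 48.9 to 60.6 in zygotes, and to at most 0.541 in 4-cell and 8-cell embryos. Most of these sums was Cyp19a1, at 38.0 ± 3.22 CPM (SD, n = 4) in GV and 62.7 ± 4.26 in MII oocytes, while the means of the other 4 were lower in MII than in GV oocytes. Trophectoderm markers, 9 present of 10 and none at 0, summed to 308 to 365 in morulae and 2465 to 3137 in blastocysts. The blastocysts were whole, so in them fewer cells of a type and less RNA per cell cannot be told apart.

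**Figure D1:**
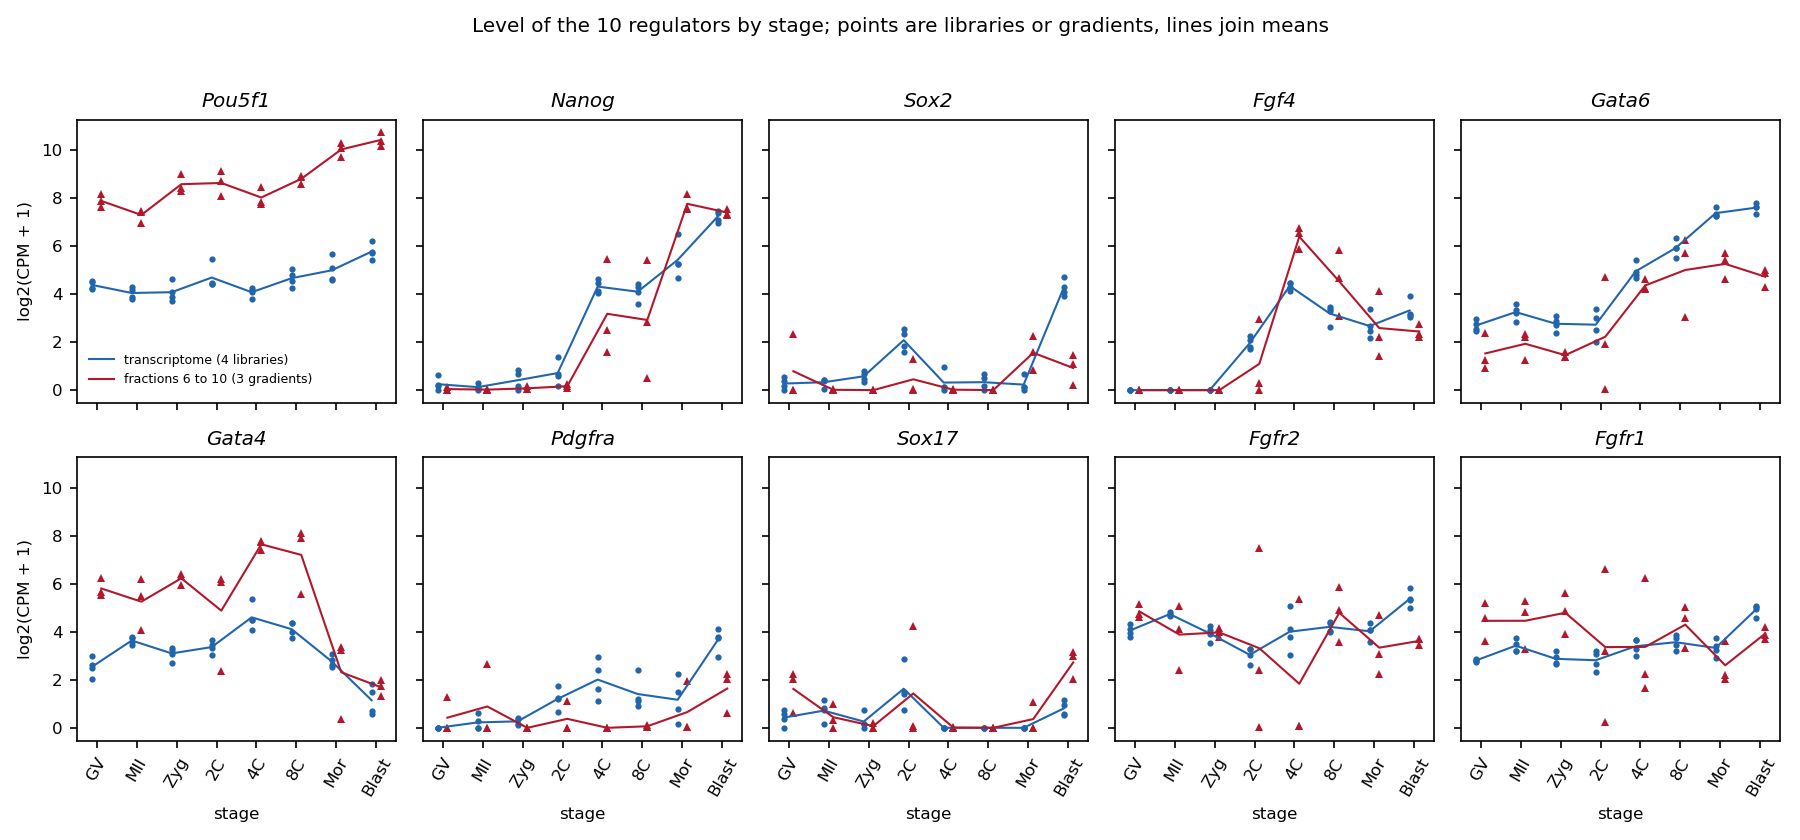
Level of each of the 10 genes on a log2(CPM + 1) scale by stage, in 4 transcriptome libraries (blue circles) and as the mean of fractions 6 to 10 in 3 gradients (red triangles); lines join the means of the points. From the 4-cell stage on, Nanog and Gata6 lie above their zygote levels in both kinds of sample, while the Gata4 heavy level dropped between the 8-cell stage and the morula.

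Every one of the 10 messages rose above the zygote at some later stage, and 7 of the 10 rose in the heavy fractions. Differences were tested with limma on log2(CPM + 1) over all genes, and a gene was called when its Benjamini-Hochberg adjusted p was under 0.05 and its change at least 1 on that scale. All 10 members passed the filter on low values. Of all genes tested, 58.5% were called higher in the transcriptome at some stage after the zygote and 32.4% in the heavy fractions. The 10 became 9 without the libraries lettered A and 8 under quantile normalization, and the 7 became 6, 6 and 5 without gradient A, B and C.

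Called stage by stage, 3 members were above the zygote in the 2-cell transcriptome (25.2% of all genes were), 5 in the 4-cell embryo (39.4%), 5 in the 8-cell embryo (37.6%), 3 in the morula (39.6%) and 8 in the blastocyst (44.4%). In the heavy fractions the counts were 0 in the 2-cell embryo (5.1% of all genes), 3 in the 4-cell embryo (14.2%), 3 in the 8-cell embryo (19.5%), 5 in the morula (22.3%) and 6 in the blastocyst (22.4%). Sox2, Fgf4 and Sox17 were the 3 messages first called above the zygote in the 2-cell embryo, Nanog, Gata6, Gata4 and Pdgfra in the 4-cell embryo, and Pou5f1, Fgfr1 and Fgfr2 in the blastocyst. The first call in the heavy fractions came at the same stage for 2 members, Nanog and Gata6 in the 4-cell embryo. Neither call was firm: that of Nanog (3.11 ± 0.91, adjusted p = 0.0075) did not pass without gradient A (3.42, 0.072) or C (2.01, 0.0593), and that of Gata6 (2.91 ± 0.90, 0.011) not without B (2.74, 0.0697) or C (2.94, 0.0637). The first heavy call came later for 4: Fgf4 (4-cell), Sox2 (morula), Pdgfra and Sox17 (both blastocyst). For Sox2 and Sox17 the message was not called above the zygote at the stage of that heavy call, so it does not continue their 2-cell rise. For Pou5f1 the first heavy call came earlier, in the morula, and Gata4, Fgfr1 and Fgfr2 were never called higher in the heavy fractions.

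These shares lay near those of all genes. Of 8310 genes with a transcriptome rise that were tested in both kinds of sample, the first heavy call came at the same stage in 19.4%, later in 30.1%, earlier in 3.57% and never in 46.9%. Heavy levels rest on 3 gradients with a wider spread, so a later call there does not show a later onset. The difference between the heavy and the transcriptome change was tested itself. That fit used 1 spread per gene for both kinds of sample, so where heavy levels vary more its p-values can be too small. From zygote to 2-cell embryo the difference was called for 0 of 10 members (27.5% of all genes), with 1 member, Sox2, at an unadjusted p under 0.05 (-1.06 ± 0.51, unadjusted p = 0.0439). By edgeR on the reads recovered from the CPM values 1 member, Gata6, was called (3.38, adjusted p = 0.0233).

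**Figure D2:**
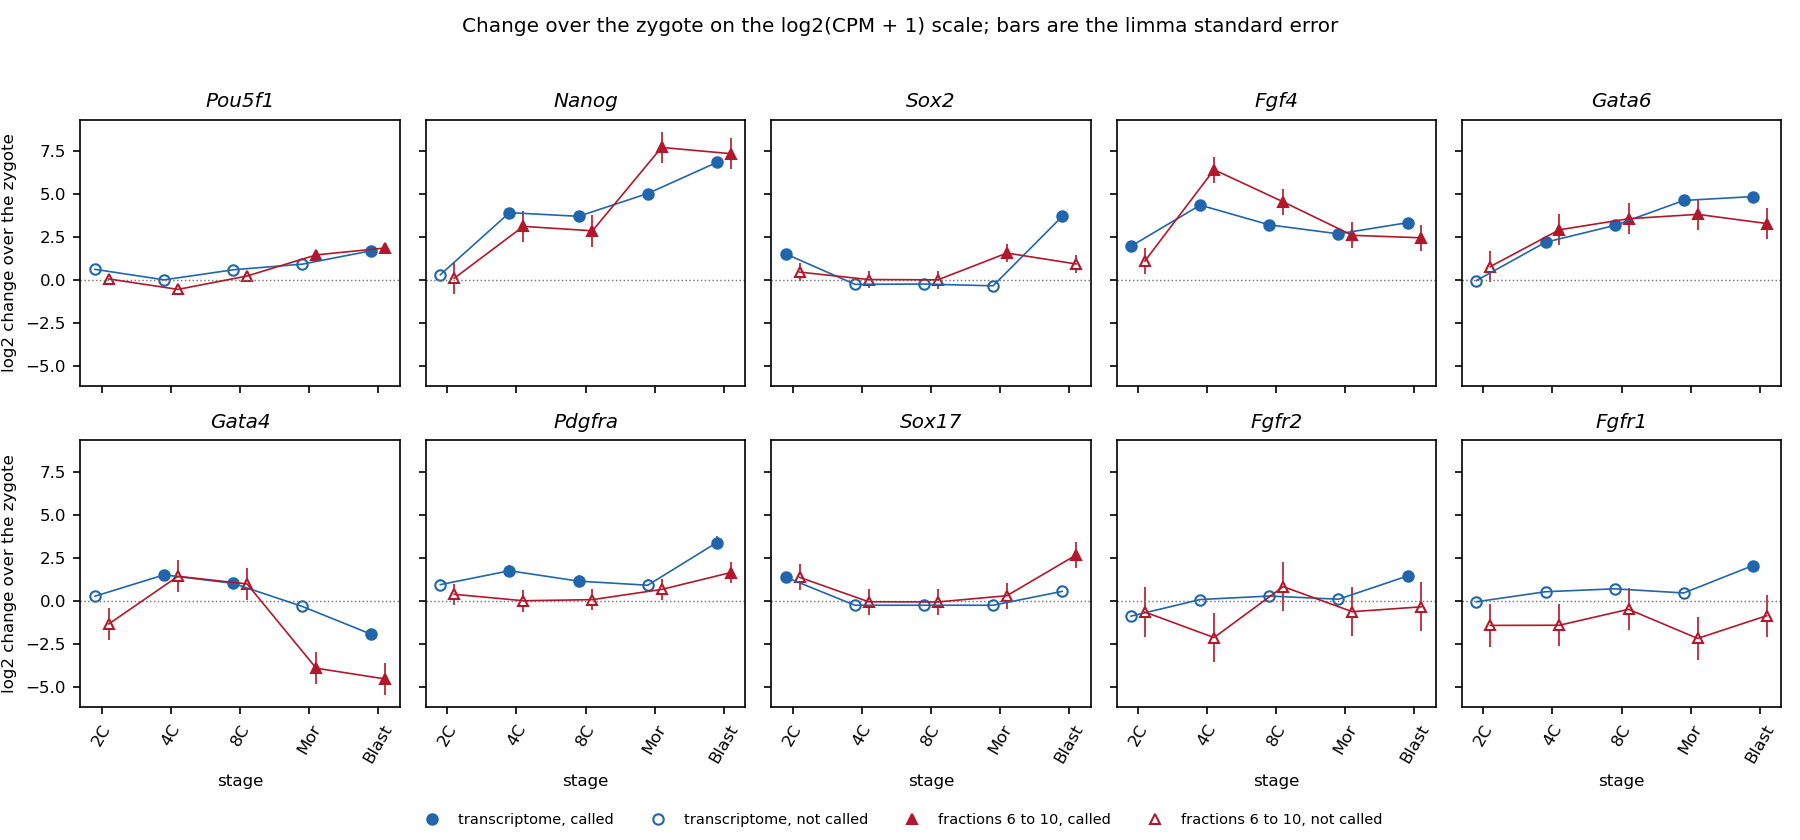
Change over the zygote on the log2(CPM + 1) scale in the transcriptome (blue circles) and the heavy fractions (red triangles) at the 5 later stages, with the limma standard error; filled symbols passed the test and open ones did not. Nanog and Gata6 have filled symbols of both kinds from the 4-cell stage on, and Fgfr1 and Fgfr2 have no filled triangle.

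By level alone, a message was taken as present from the first stage at which all 4 libraries, or all 3 gradients, held at least 1 CPM and stayed there. Only the stages from the 2-cell embryo on were read. By this description the heavy onset coincided for 1 member, Pou5f1, came later for 5 and was not reached for 2, Sox2 and Pdgfra. For the remaining 2, Gata4 and Sox17, the heavy level stayed at 1 CPM or more in the blastocyst while the message reached no such onset. The Gata4 message held at least 1 CPM in every library up to the morula. It missed the rule only in the blastocyst, at 0.626 and 0.488 CPM in libraries C and D. Of the 10 members, 5 (Pou5f1, Gata6, Gata4, Fgfr1 and Fgfr2) held at least 1 CPM in every zygote library and gradient already. Among them were 3 of the 5 with a later heavy onset, for which the description gives a return and not a first appearance. Pou5f1 never fell below 1 CPM, so its coinciding follows from where the reading began. The other 2 with a later onset were Nanog and Fgf4. With the median library or gradient in place of the lowest, 5 members coincided, 3 came later, 1 came earlier (Sox2) and 1, Sox17, had a heavy onset alone. Of the members that coincided, all but Nanog were among those already present in the zygote. Their coinciding follows from where the reading began.

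Pou5f1 encodes the transcription factor OCT4, needed to form the inner cell mass. Its message was inherited from the oocyte: transcriptome levels were 22.4, 18.4, 22.0 and 17.4 CPM in GV oocytes and 16.2, 24.1, 13.5 and 12.1 in zygotes. They reached 32.1, 27.2, 22.3 and 18.2 CPM in the 8-cell embryo, 50.4, 23.1, 23.5 and 33.1 in the morula and 73.3, 51.0, 53.6 and 41.9 in the blastocyst. All 4 blastocyst libraries lay above all zygote libraries, and the rise from zygote to blastocyst was 1.69 ± 0.24 (SE, adjusted p = 7.9e-08), or 0.91 by DESeq2, below the threshold of 1. No step between consecutive stages was called in the transcriptome.

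In the heavy fractions Pou5f1 rose at 2 steps. Heavy levels in gradients A, B and C were 178, 173 and 126 CPM in MII oocytes, 343, 516 and 319 in zygotes, 476, 490 and 385 in 8-cell embryos and 846, 1248 and 1093 in morulae. All 3 zygote gradients lay above all MII gradients, and all 3 morula gradients above all 8-cell gradients. The change was 1.28 ± 0.30 from MII to zygote (adjusted p = 0.031, with 0.84% of all genes called higher) and 1.23 ± 0.30 from the 8-cell embryo to the morula (adjusted p = 0.013, 5.42%). The MII to zygote change did not pass without gradient A (adjusted p = 0.0883), B (0.405) or C (0.166), nor the later one without B (0.156) or C (0.114) or by edgeR on recovered reads (0.0652). The heavy change minus the transcriptome change was 1.25 ± 0.41 (adjusted p = 0.11) and 0.90 ± 0.41 (adjusted p = 0.23) at these steps and was not called.

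Pou5f1 was the one member whose messages were called higher in heavy than light fractions at 3 stages. In blastocysts the heavy levels were 1342, 1713 and 1156 CPM and the light levels 273, 433 and 404, with no overlap. The heavy minus light difference was 1.02 ± 0.28 in the 8-cell embryo (adjusted p = 0.012, with 2.43% of all genes called heavier), 1.67 ± 0.28 in the morula (4.3e-05, 1.64%) and 1.93 ± 0.28 in the blastocyst (1.4e-05, 0.633%). At the 8-cell stage it did not pass without gradient B (0.94, adjusted p = 0.208) or C (1.02, 0.0542), without the fraction libraries under 1 M reads (0.76, 0.109), with pooled fractions (0.63, 0.267), under quantile normalization (0.80, 0.0745) or by edgeR (0.71, 0.194). Nor did it pass with the 8-cell gradients fitted alone (1.02, adjusted p = 0.0895 by limma), with the light side taken as fractions 2 to 5 (0.76, 0.107) or with the median over the fractions of a side (0.85, 0.675). With the median over the fractions of a side in place of the mean, an alternative chosen after the data were seen, the differences were 0.85, 1.31 and 2.07 at these stages and were not called (adjusted p = 0.675, 0.284 and 0.0666). From GV to the 4-cell embryo they ran from -0.66 to 0.54 and were not called.

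The position of Pou5f1, as its CPM-weighted mean fraction number, moved the same way. In GV oocytes it was 5.33 ± 0.35 (SD, n = 3), and 5.03 ± 0.43 in zygotes, where the median gene lay at 5.82 and 5.5. It was 6.71 ± 0.02 in the 8-cell embryo, 7.28 ± 0.03 in the morula and 7.19 ± 0.36 in the blastocyst, against 5.56, 5.75 and 5.39 for the median gene. The mean CPM peaked in fraction 3 in zygotes, fraction 9 in morulae and fraction 8 in blastocysts.

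With 1 CPM added to both, the level of Pou5f1 over all 10 fractions was 11.4 to 28.7 times its transcriptome level, depending on the stage. The median gene had a ratio of 0.756 to 1.02. In the blastocyst the ratio was 15.9 and 99.98% of 11658 genes lay below it. Pou5f1 and Nanog have processed copies elsewhere in the genome, and how the authors' counting shared reads between copies is not given in the sources used here, so both levels are uncertain to that extent.

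**Figure D3:**
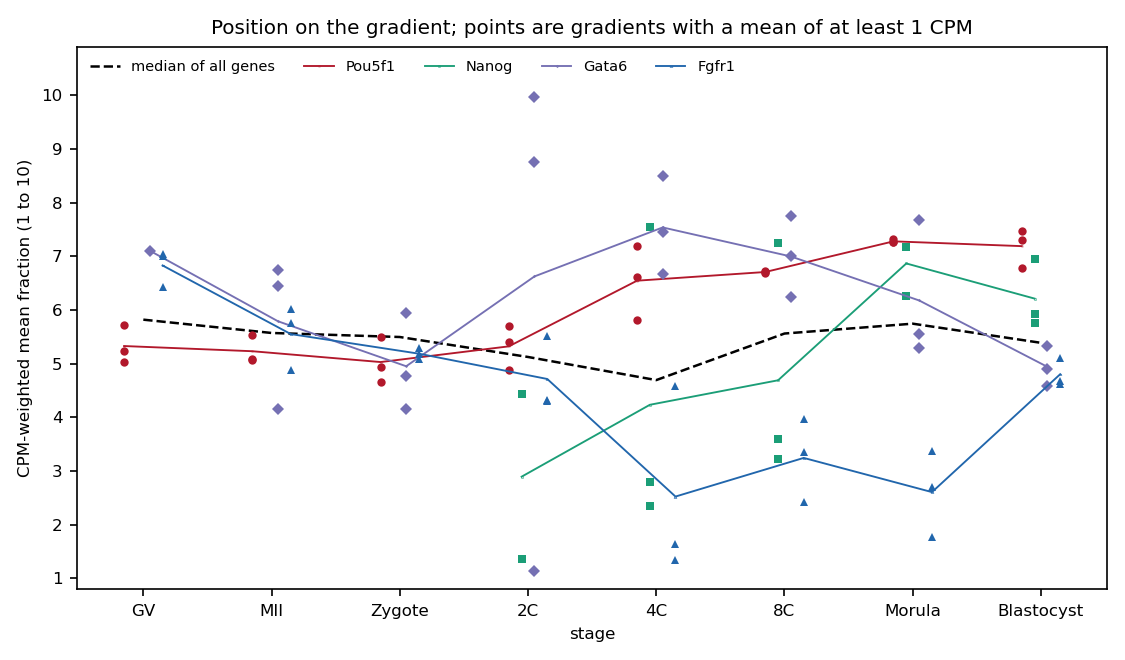
CPM-weighted mean fraction number (1 to 10) by stage for Pou5f1, Nanog, Gata6 and Fgfr1, with a point for each gradient that held at least 1 CPM on average, lines through the means and the median of all genes dashed. Pou5f1 lies near the dashed line up to the 2-cell stage and above it from the 4-cell stage. The line of Fgfr1 lies below the dashed line from the zygote on, furthest from the 4-cell stage to the morula.

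Nanog encodes a homeodomain factor that maintains pluripotency in the epiblast. Its message was at most 0.789 CPM in any library from GV oocyte to zygote and reached 0.128, 0.613, 1.61 and 0.515 CPM in the 2-cell embryo. It was 15.7, 24, 20.8 and 16.3 CPM in the 4-cell embryo, 24.6, 37.7, 37.0 and 90.7 in the morula and 167, 124, 137 and 178 in the blastocyst. The 4-cell and 2-cell libraries did not overlap, nor did those of blastocyst and morula. The message rose by 3.61 ± 0.28 from the 2-cell to the 4-cell embryo (adjusted p = 5.2e-14, with 31.8% of all genes called higher) and by 1.81 ± 0.28 from morula to blastocyst (1.9e-06, 18.8%). From the 8-cell embryo to the morula it rose by 1.33 ± 0.28 (adjusted p = 0.00045, 8.18%), but by 0.96 without the libraries lettered D, one of which held the 90.7 CPM.

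The heavy fractions took up Nanog unevenly before the morula. Heavy levels in gradients A, B and C were 4.73, 1.99 and 42.8 CPM in the 4-cell embryo and 6.20, 41.7 and 0.423 in the 8-cell embryo, so 1 gradient stood above the others at each stage. They were 193, 184 and 287 CPM in the morula and 162, 188 and 158 in the blastocyst, and all 3 morula gradients lay above all 8-cell gradients. The heavy rise was 3.02 ± 0.91 from the 2-cell to the 4-cell embryo (adjusted p = 0.012, 15.6% of all genes called higher) and 4.84 ± 0.91 from the 8-cell embryo to the morula (adjusted p = 0.0015). The first did not pass without gradient A (3.39, adjusted p = 0.0944) or C (1.88, 0.104), and the second not without A (4.89, 0.0614) or by edgeR (3.76, 0.159).

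From the 8-cell embryo to the morula the heavy rise of Nanog exceeded its transcriptome rise by 3.52 ± 0.84 (adjusted p = 0.0052, with 3.97% of all genes called so). The spread shared by both kinds of sample makes this standard error smaller than the 0.91 of the heavy change alone. This difference did not pass without the samples lettered A (3.48, adjusted p = 0.0619) or C (1.99, 0.107), or by edgeR (2.41, 0.379). In the next step, from morula to blastocyst, the message rose and the heavy level changed by -0.36 ± 0.91. The difference of -2.17 ± 0.84 was not called (adjusted p = 0.21). Nanog lay at a mean fraction of 4.23 ± 2.88 (SD, n = 3) in the 4-cell embryo, 4.69 ± 2.22 in the 8-cell embryo, 6.87 ± 0.52 in the morula and 6.21 ± 0.65 in the blastocyst. The 3 gradients of the morula had a narrower range than those of the 2 earlier stages.

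**Figure D4:**
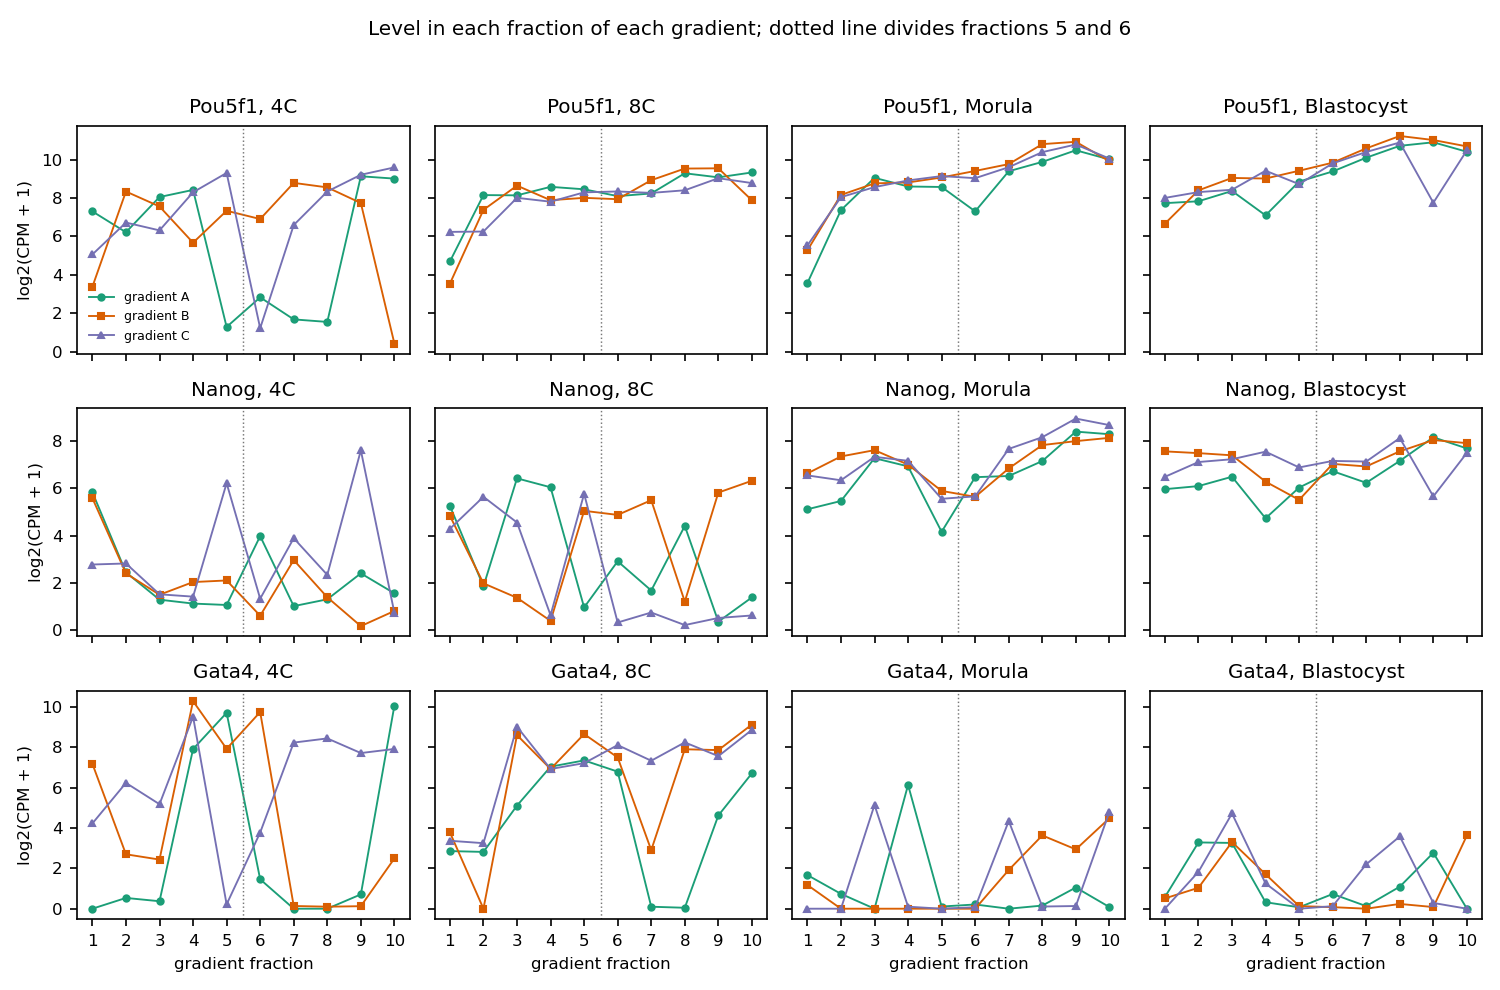
Level on a log2(CPM + 1) scale in each of the 10 fractions of gradients A, B and C for Pou5f1, Nanog and Gata4 at 4 stages. For Nanog in the 4-cell embryo single fractions of gradient C carry the highest values. In the morula and blastocyst Pou5f1 and Nanog hold at least 1 CPM in every fraction, and Gata4 is near 0 in many. The gradients lie apart in some fractions, such as blastocyst fraction 9 for Pou5f1 (1399 ± 1029 CPM, mean ± SD).

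Sox2 encodes the partner of OCT4 and is an early epiblast factor. Its message appeared in 2 separate waves. It was 2.63, 1.99, 4.06 and 4.86 CPM in the 2-cell embryo, at most 0.96 in any 4-cell, 8-cell or morula library, and 18.6, 16.3, 25.4 and 14.1 in the blastocyst. All 4 libraries of the 2-cell embryo lay above those of the zygote and of the 4-cell embryo. The changes were 1.51 ± 0.23 into the 2-cell embryo (adjusted p = 6.7e-07), -1.77 ± 0.23 out of it (1.1e-08, with 32.9% of all genes called lower) and 4.03 ± 0.23 from morula to blastocyst (2.7e-16). The first was 0.75 under quantile normalization and then below the threshold of 1.

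The heavy fractions held little Sox2 in either wave. Heavy levels were 0.0307, 1.48 and 0 CPM in the 2-cell embryo, 1.97, 0.795 and 3.78 in the morula and 1.74, 0.158 and 1.14 in the blastocyst. In the 8-cell embryo no read of Sox2 was found in any of the 30 fractions, so no fold change into the morula is given. The morula was called above the zygote (1.56 ± 0.51, adjusted p = 0.015), but not without gradient C (1.21, adjusted p = 0.187), and the blastocyst was not called. In blastocyst gradients the fraction with the highest mean was fraction 1, at 9.34, 17.6 and 24.1 CPM, and the mean position was 2.55 ± 1.30 (SD, n = 3). The heavy minus light difference of -1.48 ± 0.48 was not called (adjusted p = 0.10). The blastocyst level was low over all 10 fractions, not only the heavy ones. With 1 CPM added to both, its ratio to the transcriptome level was 0.192, and 9.80% of genes had a lower one.

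The heavy and transcriptome changes of Sox2 differed at 3 steps. The difference was -4.67 ± 0.51 from morula to blastocyst (adjusted p = 1.7e-08, with 1.73% of all genes called so), where the message rose and the heavy level changed by -0.63 ± 0.51. By edgeR it was -7.41 and not called (0.0937). The difference was 1.66 ± 0.51 from the 8-cell embryo to the morula (adjusted p = 0.038) and 1.34 ± 0.51 from the 2-cell to the 4-cell embryo (0.039, 13.8% called so), where the message fell and the heavy level was already low. The last 2 did not pass without the samples lettered C (1.28 with adjusted p = 0.306, and 0.98 with 0.253) or D (1.70 with 0.0974, and 1.08 with 0.169), nor the 2-cell to 4-cell one without A (1.16, 0.102). Sox2 lies within the longer noncoding gene Sox2ot, which was at most 1.04 CPM in any transcriptome library and 0.178 ± 0.255 (SD, n = 4) in blastocysts.

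Fgf4 encodes the FGF ligand made by epiblast precursors. It had 0 reads in every transcriptome and fraction library of GV oocytes, MII oocytes and zygotes, where 3 reads would be 0.149 to 0.217 CPM in the transcriptome. Its message was 3.21, 2.30, 2.45 and 3.76 CPM in the 2-cell embryo, 21.4, 18.5, 21.3 and 16.4 in the 4-cell embryo and 5.26, 9.41, 10.1 and 8.77 in the 8-cell embryo. The 4-cell libraries lay above those of every other stage. Against the floor of 3 reads the message was at least 18.5-fold higher in the 2-cell embryo and at least 123-fold higher in the 4-cell embryo than in the zygote. The changes were 1.96 ± 0.22 (adjusted p = 2.0e-09), 2.38 ± 0.22 (5.4e-12) and -1.15 ± 0.22 (0.0013, with 2.14% of all genes called lower) over these 3 steps. The last was -0.92 without the libraries lettered A and kept its call under 7 of 13 alternatives. It was also lost under quantile normalization, with TMM scaling, by edgeR, with a pseudocount of 5 and with only the compared stages fitted.

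Fgf4 peaked in the heavy fractions at the same 4-cell stage. Heavy levels in gradients A, B and C were 0.0153, 0.214 and 6.92 CPM in the 2-cell embryo, 57.9, 108 and 93.2 in the 4-cell embryo and 7.51, 24.4 and 56.4 in the 8-cell embryo. All 4-cell gradients lay above all others. The rise was 5.30 ± 0.77 (adjusted p = 1.0e-05), and it exceeded that of the message by 2.92 ± 0.68 (adjusted p = 0.00082), or by 2.39 without the samples lettered B (0.0503). With the median over fractions this difference was -0.29: Fgf4 had 0 reads in 5 of the 15 heavy fractions at that stage and up to 470.3 CPM in another. By edgeR on recovered reads it was 2.87 and not called (adjusted p = 0.0953). By the morula the heavy levels were 16.4, 3.65 and 1.68 CPM, and by the blastocyst 4.08, 3.64 and 5.83.

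**Figure D5:**
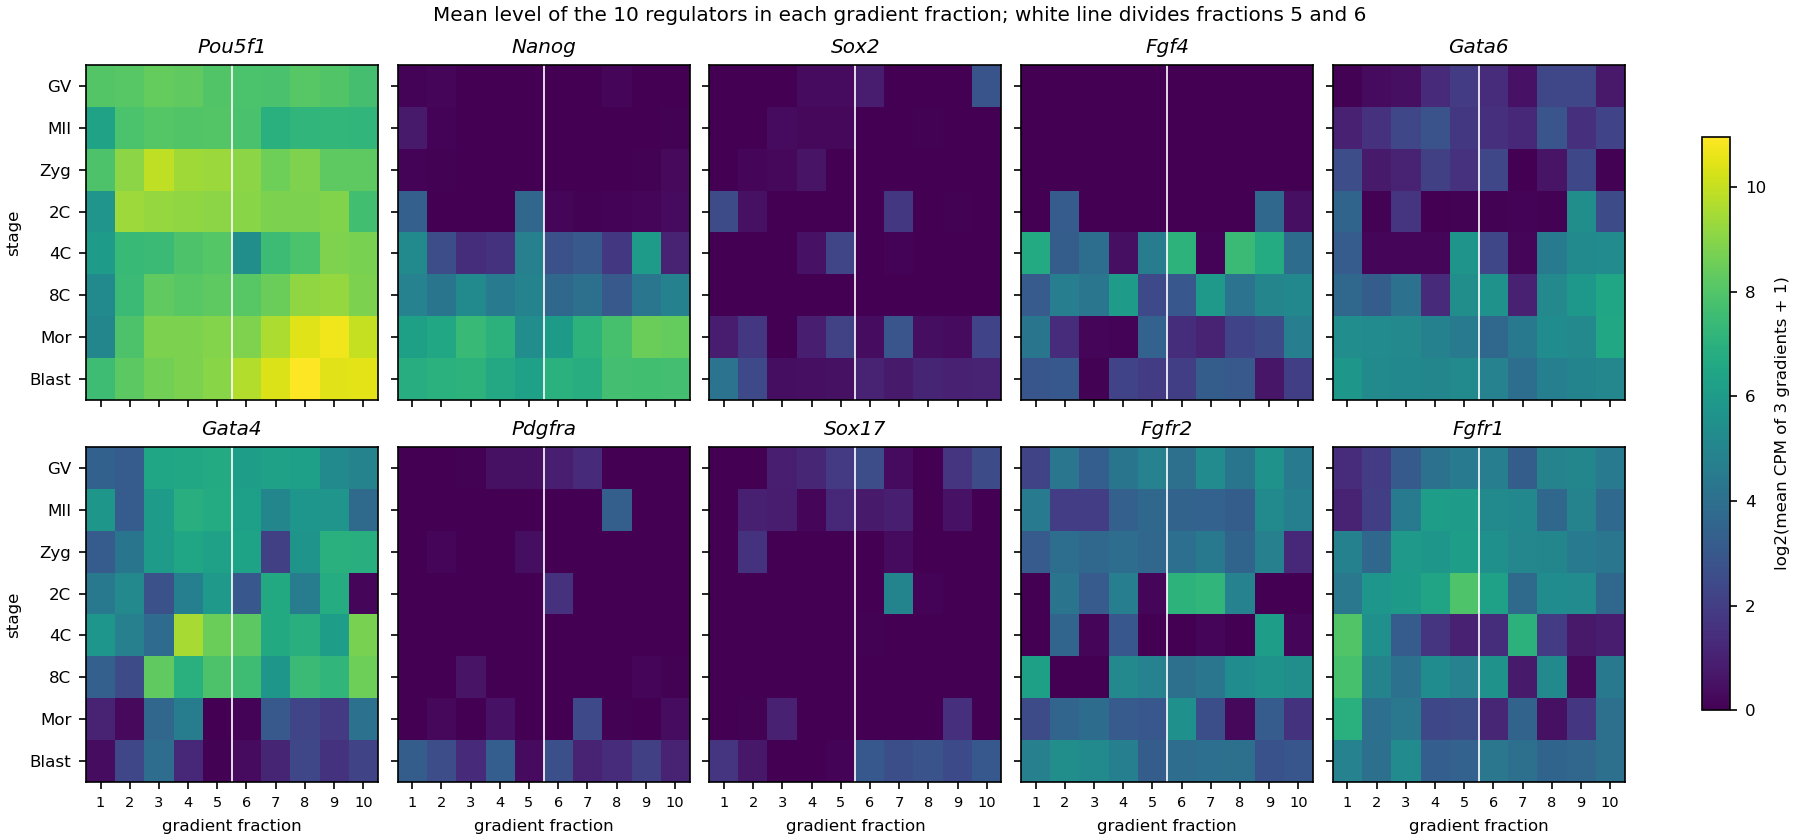
Mean CPM over 3 gradients in each fraction (columns, 1 to 10) and stage (rows), as log2(mean CPM + 1), for the 10 genes on 1 colour scale. Pou5f1 shifts to fractions 8 to 10 in morula and blastocyst, Fgf4 is brightest in the 4-cell row, and Sox17 fills fractions 6 to 10 of the blastocyst row.

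Fgfr1 and Fgfr2 encode FGF receptors, through which FGF4 acts on inner cells. Both messages were already present in oocytes. Fgfr1 was 5.85, 6.40, 5.68 and 6.06 CPM in GV oocytes, 6.48, 12.2, 8.56 and 9.79 in the morula and 33.0, 23.2, 32.3 and 29.7 in the blastocyst. Fgfr2 was 12.9, 18.8, 16.6 and 14.7 CPM in GV oocytes, 10.8, 19.4, 16.1 and 16.0 in the morula and 55.1, 39.6, 30.7 and 40.2 in the blastocyst. For both genes, all 4 blastocyst libraries lay above all libraries of every earlier stage except 1 Fgfr2 library of the 4-cell embryo, at 32.9 CPM. From morula to blastocyst Fgfr1 rose by 1.59 ± 0.22 (adjusted p = 1.6e-07) and Fgfr2 by 1.35 ± 0.26 (5.4e-05). Over the zygote Fgfr2 was 1.44 ± 0.26 higher in the blastocyst (adjusted p = 6.0e-06), but 0.79 under quantile normalization, 0.78 with TMM scaling, 0.83 by edgeR and 0.66 by DESeq2, all below the threshold of 1. The trophectoderm markers, which rose over the same step, and the cumulus markers of the oocyte stages are given above, and their part in the 2 receptor levels was not tested.

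Neither receptor was called at any step in the heavy fractions. In the blastocyst the heavy levels were 13.7, 12.2 and 17.2 CPM for Fgfr1 and 12, 9.96 and 12.1 for Fgfr2, and the light levels of Fgfr2 were 23.5, 21.8 and 38.4, above all 3 of its heavy levels. The heavy changes from morula to blastocyst were 1.32 ± 1.23 for Fgfr1 and 0.28 ± 1.43 for Fgfr2. Their differences from the transcriptome changes, -0.27 ± 1.09 and -1.07 ± 1.28, were not called, and with standard errors of this size differences of several fold could not be detected.

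Fgfr1 lay on the light side of the median gene in all gradients of the zygote and from the 4-cell embryo to the blastocyst. This held for 2 of 3 gradients of the 2-cell embryo, at mean fractions of 4.31, 5.52 and 4.32. In the 2-cell embryo its light levels were 113, 112 and 53.6 CPM and its heavy levels 0.196, 98.2 and 8.22. Heavy minus light was -3.11 ± 0.96 (adjusted p = 0.019, with 11.8% of all genes called lighter), but it did not pass without gradient A (-1.38, adjusted p = 0.469) or C (-3.39, 0.0776), or by edgeR (-1.48, 0.406). In the 4-cell embryo the heavy levels were 3.68, 2.12 and 75.4 CPM and the light levels 50.6, 76.2 and 56.2, so gradient C was the one with more on the heavy side. The difference there was -2.56 ± 0.96 (adjusted p = 0.063), and passed when each gradient was kept as a block (adjusted p = 0.0486) and without gradient C (-4.05, 0.0357). The mean fraction of Fgfr1 was 6.83 ± 0.35 (SD, n = 3) in GV oocytes, 2.52 ± 1.78 in the 4-cell embryo, 3.24 ± 0.77 in the 8-cell embryo, 2.61 ± 0.80 in the morula and 4.80 ± 0.27 in the blastocyst. The zygote, 8-cell, morula and blastocyst gradients all lay below the median gene of every gradient of their stage.

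Pdgfra encodes the platelet-derived growth factor receptor that marks primitive endoderm. Its message was 0 in all GV libraries and at most 0.528 CPM up to the zygote. It was 6.65, 1.17, 2.04 and 4.25 CPM in the 4-cell embryo, 1.27, 0.880, 1.16 and 4.39 in the 8-cell embryo, 0.101, 1.82, 3.78 and 0.725 in the morula and 16.2, 6.83, 12.5 and 12.8 in the blastocyst. Only the blastocyst libraries lay above those of all other stages, and the rise from the morula was 2.48 ± 0.35 (adjusted p = 4.1e-07). The 4-cell embryo was 1.74 ± 0.35 above the zygote (adjusted p = 3.4e-05), and the 8-cell embryo 1.14 ± 0.35 (0.0038), or 0.85 without the libraries lettered D (0.0525).

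No read of Pdgfra was found in any of the 30 fractions of the 4-cell embryo, although the message was present. These fraction libraries were shallower, with a median of 8.50 M reads against 34.3 M in the blastocyst. Heavy levels in the blastocyst were 0.529, 3.78 and 3.11 CPM, while the heavy fractions of the zygote held no read. The blastocyst was called above the zygote in the heavy fractions (1.64 ± 0.63, adjusted p = 0.035), but not without gradient B (1.33, 0.108) or C (1.44, 0.175), or by edgeR (11.3, 0.0594). The heavy change minus the transcriptome change from morula to blastocyst, -1.50 ± 0.70, was not called (adjusted p = 0.38).

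Gata6 encodes the earliest known primitive endoderm factor. Its message was 4.86, 6.91, 5.83 and 4.49 CPM in GV oocytes and 6.93, 3.07, 9.48 and 4.71 in 2-cell embryos. It was 24.7, 41.5, 29.0 and 27.1 CPM in the 4-cell embryo, 60.1, 59.8, 79.9 and 44.8 in the 8-cell embryo, 200.3, 161, 153 and 153 in the morula and 198, 197, 163 and 221 in the blastocyst. The libraries of these stages did not overlap up to the morula, while morula and blastocyst overlapped. The rise was 2.22 ± 0.23 into the 4-cell embryo (adjusted p = 4.2e-11) and 1.45 ± 0.23 into the morula (6.9e-06). The step between them, 0.98 ± 0.23 (adjusted p = 0.0052), was under the threshold of 1 and passed it without the libraries lettered B (1.13) or D (1.07).

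The heavy level of Gata6 was called above the zygote from the 4-cell embryo on, but no step between consecutive stages was called. It was 2.03, 1.63 and 1.60 CPM in zygotes, 25.0, 0.0326 and 2.82 in 2-cell embryos, 17.9, 23.8 and 17.7 at the 4-cell stage, 76.1, 51.0 and 7.32 at the 8-cell stage, 41.8, 24.1 and 51.8 in morulae and 31.0, 19.0 and 28.3 in blastocysts. Every gradient from the 4-cell stage on lay above every zygote gradient, and the 4-cell embryo was called above the zygote, as given with the onsets. With the median over fractions that change was -0.22. With 1 CPM added to both, the ratio of fraction to transcriptome level was 0.506 in the 8-cell embryo and 0.219 in the morula. It was 0.170 in the blastocyst, where 7.95% of genes had a lower one. The heavy change minus the transcriptome change was not called at any step.

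Reads on the antisense gene Gata6os, which overlaps Gata6, moved with it. Its transcriptome level was 1.31 ± 1.07 CPM (SD, n = 4) in the 4-cell embryo, 6.01 ± 3.72 in the 8-cell embryo, 27.0 ± 7.47 in the morula and 22.8 ± 11.4 in the blastocyst. Whether the counting used strand is not given in the sources used here, so reads of the overlap cannot be told apart.

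Gata4 encodes a primitive endoderm factor that is known to act after GATA6. It was the one member called lower in the blastocyst than in the morula transcriptome. The levels were 3.15, 4.66, 5.15 and 6.88 CPM in GV oocytes, 12.4, 12.7, 11 and 9.98 in MII oocytes, 40.0, 21.4, 21.6 and 16.0 in the 4-cell embryo, 5.16, 6.14, 7.47 and 4.80 in the morula and 1.84, 2.52, 0.626 and 0.488 in the blastocyst. No library of one of these groups overlapped those of the next. Changes were 1.10 ± 0.26 from GV to MII (adjusted p = 0.00044, 9.11% of all genes called higher), 1.24 ± 0.26 from the 2-cell to the 4-cell embryo (5.5e-05), -1.34 ± 0.26 from the 8-cell embryo to the morula (0.00015, 3.7% called lower) and -1.62 ± 0.26 from morula to blastocyst (3.0e-06, 7.97%). The first was 0.91 without the libraries lettered A. The 8-cell embryo was 1.01 ± 0.26 above the zygote (adjusted p = 0.00064), but 0.92 without the libraries lettered A, 0.80 without B and 0.72 under quantile normalization. Of the cumulus and granulosa markers, whose cells are known to express Gata4, 1 (Cyp19a1) had a higher mean in MII than in GV oocytes and 4 a lower one, Fshr going from 2.45 ± 1.02 to 0.201 ± 0.175 CPM and Inha from 1.40 ± 1.07 to 0.406 ± 0.516, and their part in that rise was not tested.

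The heavy level of Gata4 was high from the oocyte on and fell by the morula. It was 74.4, 49.1 and 45.7 CPM in GV oocytes, 84.1, 80.4 and 60.6 in zygotes, 73.5, 4.15 and 66.5 in 2-cell embryos, 213, 171 and 220 at the 4-cell stage, 47.2, 241 and 276 at the 8-cell stage, 0.279, 8.42 and 9.23 in morulae and 1.54, 2.33 and 2.97 in blastocysts. All morula gradients lay below all gradients of every earlier stage except 1 of the 2-cell embryo. The change was 2.77 ± 0.93 from the 2-cell to the 4-cell embryo (adjusted p = 0.022) and -4.89 ± 0.93 from the 8-cell embryo to the morula (0.0017, with 2.56% of all genes called lower). The first did not pass without gradient B (1.62, adjusted p = 0.274) or C (3.29, 0.089), and the second not without C (-4.96, 0.0629). Between the 8-cell embryo and the morula the heavy level fell by 3.55 ± 0.86 more than the message (adjusted p = 0.0057, with 2.48% of all genes called so), but this did not pass without the samples lettered C (-3.47, 0.0647). Against the zygote the heavy level was called lower in the morula (-3.92 ± 0.93, adjusted p = 0.0015, with 27.5% of all genes called lower) and in the blastocyst (-4.55 ± 0.93, 0.00039, 27.3%).

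Sox17 encodes an endoderm factor that comes on late in the primitive endoderm. Its message was 6.22, 1.84, 1.69 and 0.663 CPM in the 2-cell embryo, 0 in all libraries of the 4-cell embryo, the 8-cell embryo and the morula, and 0.429, 0.952, 1.25 and 0.488 in the blastocyst. The changes of 1.37 ± 0.26 into the 2-cell embryo (adjusted p = 3.0e-05) and -1.63 ± 0.26 out of it (7.8e-07) were called, the first being 0.87 without 2-cell library E and the libraries lettered A, and 0.74 under quantile normalization. The 2-cell level was at least 15.5-fold higher than the floor of 3 reads in the 4-cell embryo. In the 2-cell gradients 1 fraction of gradient C, fraction 7, held 88.9 CPM, and the other 29 fractions held at most 0.227.

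In the blastocyst Sox17 lay on the heavy side in all 3 gradients. Its heavy levels were 7.05, 3.09 and 7.83 CPM and its light levels 0.340, 0.279 and 1.06, with no overlap. Heavy minus light was 2.12 ± 0.58 (adjusted p = 0.030), which did not pass without gradient A (1.89, adjusted p = 0.497) or B (2.34, 0.251), or by edgeR (4.97, 0.764). The mean fraction was 7.58 ± 0.97 (SD, n = 3), against 5.39 for the median gene. The heavy level was called 2.66 ± 0.75 above the zygote (adjusted p = 0.0057), or 2.48 without gradient A (0.0838) and 6.95 by edgeR (0.105), neither called, while the message, 0.54 above the zygote, was not called.

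Over all 7 steps between consecutive stages, 20 of 70 transcriptome comparisons of the 10 members were called, 15 higher and 5 lower, and 7 of 70 heavy comparisons, 6 higher and 1 lower. Of all genes, 26.4% of the transcriptome comparisons were called (14.2% higher, 12.2% lower) and 11.3% of the heavy ones (4.77% higher, 6.48% lower), so the members lay near the background in both. At 2 steps 6 members each were called in the transcriptome. From the 2-cell to the 4-cell embryo Nanog, Fgf4, Gata6 and Gata4 were higher and Sox2 and Sox17 lower, with 64.8% of all genes called. From morula to blastocyst Nanog, Sox2, Pdgfra, Fgfr1 and Fgfr2 were higher and Gata4 lower, with 26.8% called. At that last step 0 of 10 members were called in the heavy fractions, where 0.0757% of all genes were. By limma 1 member, Sox17, had an unadjusted p under 0.05 (2.36 ± 0.75, unadjusted p = 0.00485), and edgeR on recovered reads called 0 of 10. From the 4-cell to the 8-cell embryo 1 transcriptome comparison was called, the fall of Fgf4, against 2.6% of all genes. That call was kept under 7 of 13 alternatives.

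Other genes of the same pathways were counted from lists chosen with earlier results of these data known. Of 16 other pluripotency genes tested, 11 rose and 1 fell in the transcriptome from the 2-cell to the 4-cell embryo, with a median change of 2.11 against 0.02 over all genes, of which 31.8% rose and 32.9% fell. In the heavy fractions 7 of 16 rose and 0 fell (median 2.05, against -0.06), where 15.6% of all genes rose and 22.3% fell. Among those that rose were Dppa5a, a marker of early pluripotent cells, from 121 ± 11.5 to 5067 ± 342 CPM (mean ± SD, n = 4), and Klf2, a pluripotency transcription factor, from 4.65 ± 0.40 to 142 ± 25.7. From morula to blastocyst 1 rose and 1 fell, where 18.8% of all genes rose and 7.97% fell: Tfcp2l1, a factor of naive pluripotency, went from 186 ± 33.2 to 518 ± 108 CPM and Klf2 from 145 ± 29.3 to 40.3 ± 8.85.

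Of 11 other primitive endoderm genes tested, 9 rose and 0 fell in the transcriptome from morula to blastocyst, with a median change of 1.55 against 0.16 over all genes, of which 18.8% rose. Under quantile normalization 6 rose and with TMM scaling 7. Lrp2, an endocytic receptor of endoderm, went from 58.8 ± 16.2 to 498 ± 78.3 CPM, Col4a1, a basement membrane collagen, from 2.66 ± 1.5 to 22.5 ± 3.34, and Lama1, a laminin chain, from 0.0956 ± 0.110 to 5.68 ± 2.86. In the heavy fractions 0 of 12 were called by limma at this step (median 0.51), where 0.0757% of all genes were. The heavy change was called below the transcriptome change for 2 of 12, where 1.73% of all genes were. These were Lrp2, by 2.42 ± 0.61 (adjusted p = 0.019), and Col4a2, by 2.29 ± 0.46 (0.0020). Under quantile normalization 1 of 12 was called lower, and with TMM scaling 1. Dab2, an endocytic adaptor of primitive endoderm, rose in the heavy fractions one step earlier, from 0.105 ± 0.103 to 110 ± 22.5 CPM (mean ± SD, n = 3) between the 8-cell embryo and the morula.

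Of 23 other FGF and PDGF signalling genes tested, 8 rose and 0 fell in the transcriptome from morula to blastocyst (median 0.29, against 0.16 and 18.8% risen over all genes), and in the heavy fractions 0 of 24 were called by limma (0.0757% of all genes). Under quantile normalization 4 rose and with TMM scaling 6. Dusp4, a phosphatase induced by ERK signalling, went from 4.25 ± 2.68 to 57.7 ± 7.73 CPM, Frs2, an adaptor of FGF receptors, from 21.6 ± 4.81 to 73.8 ± 13.5, and Pdgfa, the ligand of PDGFRA, from 46.7 ± 9.98 to 154 ± 14.5. From the 2-cell to the 4-cell embryo 8 of 23 rose and 8 fell, near the 31.8% and 32.9% of all genes. Among those that fell were Spry4, a feedback inhibitor of FGF signalling, from 425 ± 82.2 to 4.99 ± 2.07 CPM and the kinase gene Mapk3 from 214 ± 61.5 to 2.30 ± 2.35.

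The genes with the most similar transcriptome pattern were ranked by Pearson r of log2(CPM + 1) over the 32 libraries, which share the 8 stages, among 14642 genes. For Nanog they were Cdc42ep5 (r = 0.987), Psd4 (0.985) and Slc5a11 (0.984), for Gata6 Grk6 (0.980), Epas1 (0.978) and BC048679 (0.977), and for Fgf4 Slc1a5 (0.982), Nabp1 (0.972) and Grsf1 (0.971). Sox2 came closest to Gata2 (0.973), Pyy (0.953) and Mmp15 (0.941), and Gata4 to Ddias (0.910). The pattern of Pou5f1 was less closely matched, with Gm5424 (0.854) first. Among the members themselves the highest r was that of Gata6 and Nanog, 0.951, and Fgfr1 and Fgfr2 had 0.732.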

How the data were processed

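RNA of whole oocytes or embryos and of 10 sucrose gradient fractions was sequenced over 8 stages of mouse development, in 32 transcriptome and 240 fraction libraries. Per the submitters' processing notes, tools used include Trim Galore 0.6.7, FastQC, HISAT2 2.2.1, featureCounts 2.0.1 and edgeR, with build GRCm39. The values the authors deposited are CPM, in a single table, relative to each library's total. Of its columns, 9 were recorded as a signal because the deposited values summed to too much for CPM: 76 groups of identical rows (159 symbols) counted reads more than once and were reduced to 1 symbol each, leaving 15771. After that each library summed to 0.791 to 0.989 M. Low values were whole multiples of 1 read in all but 1 fraction library (2-cell, fraction 7, gradient B), with 100% of values whole to within 0.05 reads, which gave the depths and the reads for edgeR 4.0.16 and DESeq2 1.42.0.

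Tests were run in R 4.3.3 with limma 3.58.1 (trend) on log2(CPM + 1) over all genes that reached 1 CPM in enough samples to fill the smallest group, all stages in 1 fit. The 2-cell transcriptome columns carry letters E to H, which the labels do not, so they are known by stage only. No 2 replicates agreed within sampling noise. The members, pathway lists and markers were chosen with earlier results of these data known. All 10 members are named, and from each list at most the 3 genes with the largest change among those called in a comparison. Letters did not pair samples between stages (correlations of deviations -0.178 to 0.195 in transcriptomes). Heavy and light levels of 1 gradient do share a sample (0.00776 to 0.253). Alternatives covered the pseudocount, filter, scaling, samples in the fit, each letter left out, count tests, and which fractions count as heavy or light. Promoter windows come from RefSeq.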

Additional observations from a re-analysis of the deposited data

Results flagged for a closer look

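In 3 of 60 transcriptome groups of 4, 1 library lay far from the others. These were Pou5f1 in 2-cell library E at 42.9 CPM against 20.2 to 21.2, Fgf4 in blastocyst library D at 14.0 CPM against 7.28 to 8.13, and Pdgfra in 8-cell library D at 4.39 CPM against 0.880 to 1.27. The gap to the nearest library, as a share of the range of the group, exceeded the critical value of Dixon's test, which chance gives in about 1 group in 20.

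The change in the heavy fractions was tested against that in the transcriptome, with a spread shared by both kinds of sample, so the p-values can be too small. The difference was called in 6 of 70 member comparisons, against 13.2% of the comparisons of all genes. The heavy change was above the transcriptome change for Fgf4 by 2.92 and for Sox2 by 1.34 from the 2-cell to the 4-cell embryo. From the 8-cell embryo to the morula it was above for Nanog by 3.52 and for Sox2 by 1.66, and the difference for Gata4 was -3.55. From morula to blastocyst the difference for Sox2 was -4.67. Each of the 6 lost its call under at least 1 alternative, that of Sox2 from morula to blastocyst under edgeR alone.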

How the results depend on the processing

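Of the calls on members, 9 of 20 between consecutive transcriptomes, 0 of 7 in heavy fractions, 0 of 5 of heavy against light and 0 of 6 differences between heavy and transcriptome change passed under every alternative run. The 20 became 10 with a pseudocount of 5. The 7 became 2 with the fit limited to the stages compared, 4 by edgeR, 4 with fractions 7 to 10 as heavy and 2 with fractions 8 to 10. The 5 became 3 by edgeR, 9 with fractions 1 and 2 as light and 1 with the median over fractions. That median, chosen after the data were seen, turned the 6 differences into 18 and the 7 members that rose in heavy fractions over the zygote into 4. The level description had 7 members with a later or no heavy onset and 3 with the median library. Leaving out 1 letter at a time gave 17 to 24, 3 to 6, 3 to 5 and 4 to 7 calls in these comparisons, 9 to 10 members rising in the transcriptome over the zygote and 5 to 6 in heavy fractions.

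Values turned sign for Gata4, heavy against light in the 4-cell embryo, to 3.63 with fractions 1 and 2 as light, and for the Nanog difference from the 4-cell to the 8-cell embryo, to 2.32 without the samples lettered C (-2.10 without B). With the median over fractions, the Fgf4 differences became -0.29 from the 2-cell to the 4-cell and 3.12 from the 4-cell to the 8-cell embryo, that of Gata6 became 3.0 at the latter step, and the Gata6 heavy change from zygote to 4-cell embryo became -0.22. The cause was not tested. Over the single genes, the alternatives other than that median left 4765 values on their side of the threshold, took 144 below it and 91 above it. A replicate block gave 11 transcriptome calls against 11 without it and 8 differences against 4 where no 2-cell library enters, 7 heavy calls against 7, and 6 of heavy against light against 5. The letters share only a name across stages (correlations of deviations for the differences -0.173 to 0.192).

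Quantile normalization moved the median gene by -0.45 in the transcriptome and 0.50 in heavy fractions from zygote to 2-cell embryo, and the share of higher calls from 74.3% to 46.4% and from 24.5% to 50.8%. From the 4-cell to the 8-cell embryo the shares went from 17.4% to 49.8% and from 85.6% to 49.9%, and from morula to blastocyst in the transcriptome from 70.2% to 50.8%. Leaving out the fraction libraries under 1 M reads kept each count but exchanged 1 call of heavy against light: Pou5f1 in the 8-cell embryo was lost (0.76) and Fgf4 in the 4-cell embryo gained (3.52).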

Other observations

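Dppa5a, a marker of early pluripotent cells, was also an oocyte message. Its transcriptome level went from 686 ± 75.2 CPM (mean ± SD, n = 4) in GV oocytes to 62.6 ± 31.0 in MII oocytes, while its heavy level was 1607 ± 127 and 1651 ± 489 (n = 3). The heavy change exceeded the transcriptome change by 3.58 ± 0.36 (SE, limma adjusted p = 3.0e-10, with 6.94% of all genes called so). At the next step, from MII oocyte to zygote, the heavy level fell to 259 ± 71.6 CPM and the message to 24 ± 2.25, both called.

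Among the other pluripotency genes, Tdgf1, a co-receptor for NODAL, rose in heavy fractions from 12.7 ± 15.7 CPM in 4-cell to 51.7 ± 18.1 in 8-cell embryos, 3.35 ± 0.72 above its transcriptome change (adjusted p = 0.00092). Klf2 fell in heavy fractions one step later, from 339 ± 83.0 CPM to 65.2 ± 12 in the morula, 2.41 ± 0.58 below its transcriptome change (difference of -2.41, adjusted p = 0.0051). Heavy levels of Dusp4 rose over the same step from 8.79 ± 15.2 to 85.3 ± 54.1 CPM (4.63 ± 1.30, adjusted p = 0.029). These genes were named by the size of their change within the lists, and their leave-one-out values were not computed.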
